A study of Rattus norvegicus with 38 samples.

Results

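The superior part of the sinoatrial node was compared between failing and healthy hearts of male Sprague-Dawley rats aged 10 weeks, in 8 of the 38 libraries of the series. The failing group held the libraries sSAN0409, sSAN0506, sSAN0507 and sSAN0508, and the healthy group held ST_0920, ST_0921, ST_1001 and ST_1002. They were chosen by region and health state as labelled, not by any measured value. Per the labels' protocols, the ascending aorta of pups was constricted at 1 week of age and left ventricular hypertrophy followed. Failing and healthy libraries carry that same text, and the handling of the healthy rats is otherwise unstated in the labels. No code occurs in both health states, so a difference that goes with the codes and 1 that goes with health cannot be told apart. The labels carry a 4-digit code that recurs across regions and do not say that it marks an animal, so the p-values measure the spread between these libraries.

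The sinoatrial node is a small strip of muscle at the junction of the superior vena cava and the right atrium. Its cells depolarise by themselves between beats and so set the heart rate. The node extends from a superior (cranial) to an inferior (caudal) part, and the leading pacemaker site can shift between them. Nodal muscle lies in connective tissue, beside working atrial muscle, vessels and nerves, so a piece of node is a mixture of cell types. In such bulk tissue, fewer cells of a type and less RNA per cell cannot be told apart.

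The deposited tables identify genes by Ensembl ID only, and neither they nor the reference tables used here pair these IDs with names. Lists of pacemaker channels, matrix genes, cell type markers and other functions were therefore not applied. The labelled tissue was not checked against its markers, no gene is given a function, and at most 2 IDs in each direction are printed. Gene groups are described by how they behaved elsewhere in the heart.

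Genes higher in failing superior nodes outnumbered those lower in them, by a margin that depended on the processing. Of 14351 genes tested with edgeR's quasi-likelihood test, 1280 were higher (8.92%) and 654 were lower (4.56%) in failing nodes at an adjusted p under 0.05, 13.5% of genes together. The median log2 change was 1.06 among the higher genes and -0.70 among the lower ones. A change of at least 2-fold was seen for 689 of the higher genes (53.8%) and 174 of the lower genes (26.6%). A change of at least 4-fold was seen for 178 higher and 31 lower genes. The typical standard error was 0.23 among the higher and 0.16 among the lower genes, on the log2 scale. Over all genes tested, after scaling of the libraries by TMM (trimmed mean of M-values), the median change was -0.01. Increases made up 66.2% of the genes that passed. That share was 56.8% with DESeq2 (1871 higher and 1422 lower), 61.7% with RLE scaling in edgeR and 53.6% with a trend on gene length removed. It was 91.9% with limma on unscaled log2(TPM + 1), where the median of all genes lay at 0.12.

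The balance of increases and decreases varied with abundance, taken as the mean log2 CPM (counts scaled to library size). Below 1, 119 of 1879 genes (6.33%) were higher in failing nodes and 34 (1.81%) were lower. Between 1 and 3, 349 of 2790 genes (12.5%) were higher and 71 (2.54%) were lower. Between 3 and 5, 429 of 4980 genes (8.61%) were higher and 240 (4.82%) were lower. The gap between both shares was thus widest between 1 and 3. It was narrowest between 5 and 7, with 276 (7.52%) higher and 250 (6.82%) lower of 3668 genes. Above 7, 107 (10.3%) were higher and 59 (5.71%) lower of 1034 genes. Among the 50 most abundant genes, which held 39.7% of all CPM, 2 were higher, 2 were lower and 46 did not pass. Failing libraries also had more genes at or above 1 CPM, 13270 to 13500 of them, against 12843 to 13143 in healthy libraries. The exact two-sided permutation p was 0.0286, the smallest that 4 against 4 libraries allow. Among healthy libraries the number fell as the 10 most abundant genes took more counts, from 13143 at 24.7% (ST_1002) to 12843 at 39.3% (ST_0921). Failing libraries did not keep that order, with 13270 at 25.8% (sSAN0507) and 13500 at 26% (sSAN0508). Whether that share lowered the number was not tested. There were 68 genes at or above 1 CPM in all failing libraries and under it in all healthy ones, and 59 of these passed the test. Another 9 genes showed the reverse, of which 5 passed. Both sets were picked for a difference in the same libraries that were tested, so passing follows in large part from the choice. These genes were weak on both sides: the 68 had a median of 2.14 CPM in failing and 0.539 CPM in healthy nodes.

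**Figure D1:**
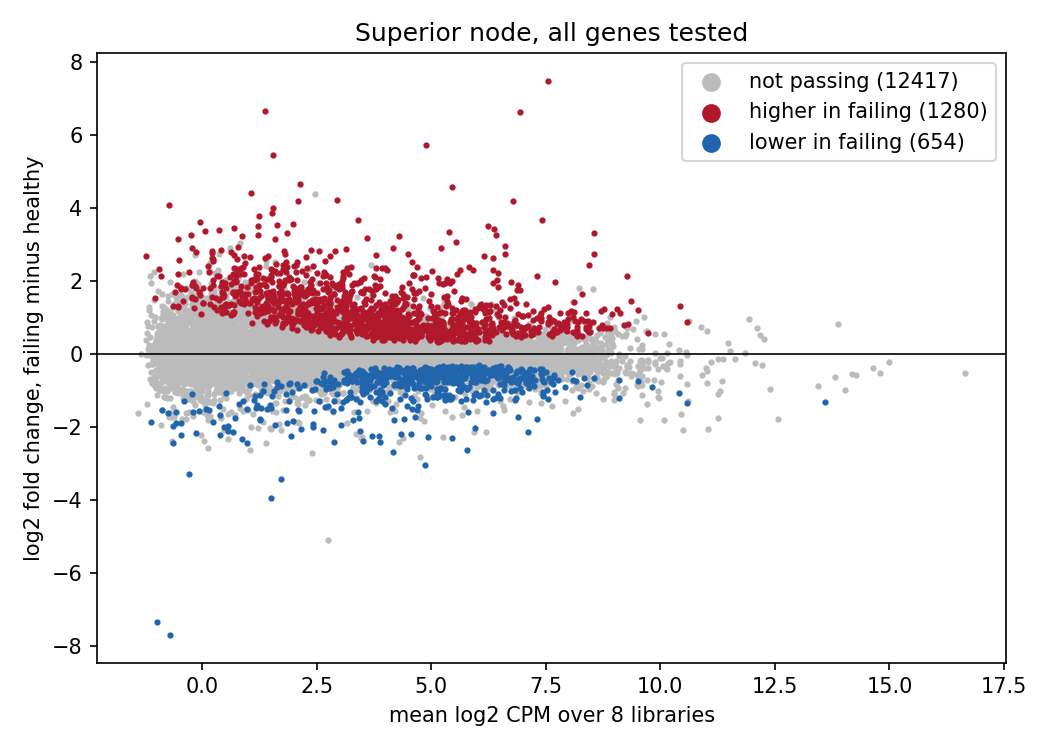
Log2 fold change of failing minus healthy superior node (y axis) against the mean log2 CPM over the 8 libraries (x axis) for the genes tested, 1 point a gene. Red points are the 1280 genes higher and blue points the 654 genes lower in failing nodes. Red points are most numerous at a mean log2 CPM of 3 to 5, with 429 of 4980 genes (8.61%). Blue points are most numerous at 5 to 7, with 250 of 3668 genes (6.82%). As a share of the genes tested, red points are most frequent at 1 to 3 (12.5%).

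The genes that passed also differed in length. Length was taken from the ratio of estimated count to TPM (a level per transcript length) and set relative to the median gene tested. The median relative length was 0.785 among genes higher in failing nodes, 1.37 among genes lower in failing nodes and 1 among the 12417 genes that did not pass. With a trend on length removed from each library, an alternative chosen after seeing the data, 1746 genes passed, 935 higher and 811 lower, and 1440 of the 1934 genes were among them. Increases were then 53.6% of the genes that passed.

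The CPM ranges of failing and healthy libraries did not overlap for 1176 of the 1280 higher genes and 607 of the 654 lower genes. These genes were picked for a difference in the same 8 libraries, so little overlap follows from the choice. Over all genes tested, the ranges did not overlap for 1802 genes with failing libraries higher (12.6%) and 1257 with failing libraries lower (8.76%).

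The gene ENSRNOG00000008015 had the largest increase among genes that passed with a mean log2 level of at least 1 and no overlap. It measured 633, 282, 194 and 386 CPM in the failing libraries sSAN0409, sSAN0506, sSAN0507 and sSAN0508, against 4.78, 1.15, 1.52 and 0.755 CPM in the healthy libraries ST_0920, ST_0921, ST_1001 and ST_1002. Every failing library lay far above every healthy one, and ST_0920 was the highest of the healthy. The means were 373 ± 190 CPM in failing and 2.05 ± 1.84 CPM in healthy nodes (SD, n = 4 each). This was a difference of 7.48 on the log2 scale, with an SE of 0.68 and an edgeR adjusted p of 0.00172. Per length, the gene averaged 317 TPM in failing and 1.56 TPM in healthy nodes. Its TPM equalled that of 1 transcript of the transcript table in every library.

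The gene ENSRNOG00000002792 came next, at a far lower level. It measured 11, 1.56, 1.21 and 5.86 CPM in failing nodes, against 0, 0.0523, 0.131 and 0 CPM in healthy nodes, in the same order of libraries. It was near silent in all healthy libraries, 2 of which were listed at 0, and sSAN0409 and sSAN0508 were the highest of the failing. The log2 change was 6.65 (SE 1.07, edgeR adjusted p = 0.0125). The counts summed to 474 in failing and 4 in healthy libraries, and the fitted change of such a gene depends on the prior count. The ratio of the summed counts was 116, with a 95% interval of 45.2 to 429 that covers counting error only. In sSAN0409 both genes with large increases had their highest values.

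The largest decreases were of weakly expressed genes. ENSRNOG00000062464 measured 0.387, 0.504, 0.125 and 0.332 CPM in failing nodes, against 8.39, 8.9, 1.31 and 2.18 CPM in healthy nodes. All failing libraries were lower than all healthy ones, and among the healthy the libraries ST_0920 and ST_0921 stood well above ST_1001 and ST_1002. The log2 change was -3.94 (SE 0.71, edgeR adjusted p = 0.0156).

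ENSRNOG00000014481 had the same high pair and low pair among the healthy libraries. It measured 0.516, 0.605, 0.46 and 0.59 CPM in failing nodes, against 11.2, 9.1, 2.13 and 1.17 CPM in healthy nodes. The failing libraries were close to each other (0.543 ± 0.0676 CPM, SD, n = 4), while the healthy ones spread widely (5.9 ± 4.99 CPM, SD, n = 4). The log2 change was -3.43 (SE 0.70, edgeR adjusted p = 0.0214). This call was lost without sSAN0507 (adjusted p = 0.0556), without sSAN0508 (0.0557) and without ST_0920 (0.0548), over a range of edgeR, DESeq2 and limma alternatives from 4.13e-06 to 0.0557.

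**Figure D2:**
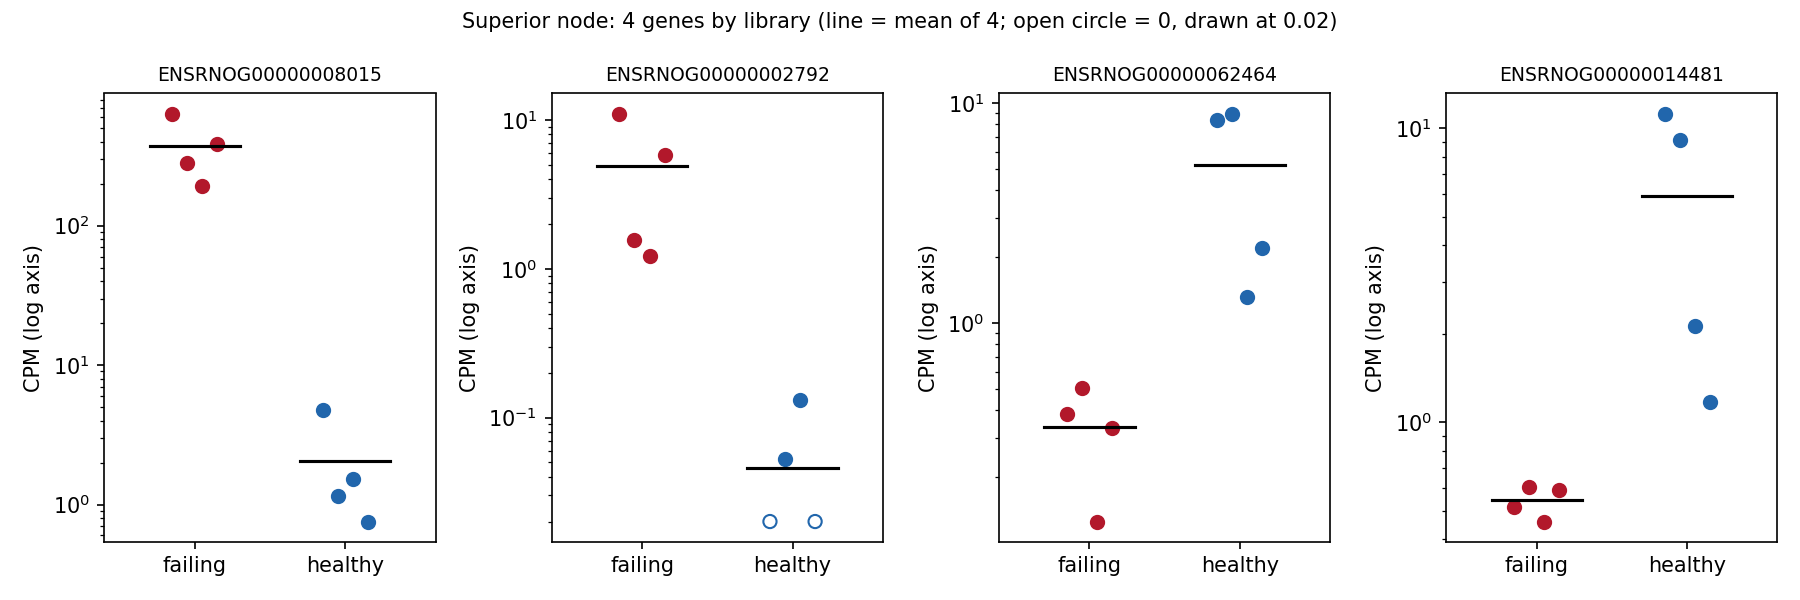
CPM on a log axis (y axis) of the 4 genes in failing and healthy superior node libraries (x axis), 1 point a library, with the mean of 4 as a line; open circles are libraries at 0, drawn at the foot of the panel. The failing and healthy points do not overlap in any panel, which was a condition for choosing these genes. The healthy points of both lower genes fall into a high and a low pair.

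The healthy libraries were not uniform beyond these genes. On the first principal component of the 8 libraries, which held 44.9% of the variance, failing libraries scored 13.7 to 61.4 and healthy ones -45.2 to -29.2. The second component held 20.5% and set ST_0920 (-16.6) and ST_0921 (-43.7) apart from ST_1001 (41.9) and ST_1002 (30.2). On it the failing libraries lay between -16.6 and 15.8. The root mean square difference in log2 CPM was 0.557 to 0.638 between pairs of failing libraries, 0.493 to 0.775 between pairs of healthy ones and 0.656 to 0.969 between a failing and a healthy library. The closest pair across health states was sSAN0506 and ST_0920. The 10 most abundant genes took 21.7% to 29.5% of counts in failing and 24.7% to 39.3% in healthy libraries, with the highest share in ST_0921. Totals were 19371452 to 24887086 estimated counts in failing and 22467579 to 27355777 in healthy libraries (exact permutation p = 0.171).

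The number of genes that passed leaned on single libraries. It was 632 without sSAN0508, 645 without sSAN0507, 368 without ST_0920, 629 without ST_1002 and 1111 without ST_0921, against 1934 with all 8. It was 1571 without sSAN0409, 1987 without sSAN0506 and 1329 without ST_1001. In each of these fits more genes were higher than lower in failing nodes. Of the 14351 genes tested with all 8 libraries, 300 passed there and in each of these 8 fits, 214 higher and 86 lower. Their median log2 changes were 1.6 and -1.01. These fits share most of their libraries. The 300 genes were chosen for passing, so medians of large size follow in part from the choice.

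**Figure D3:**
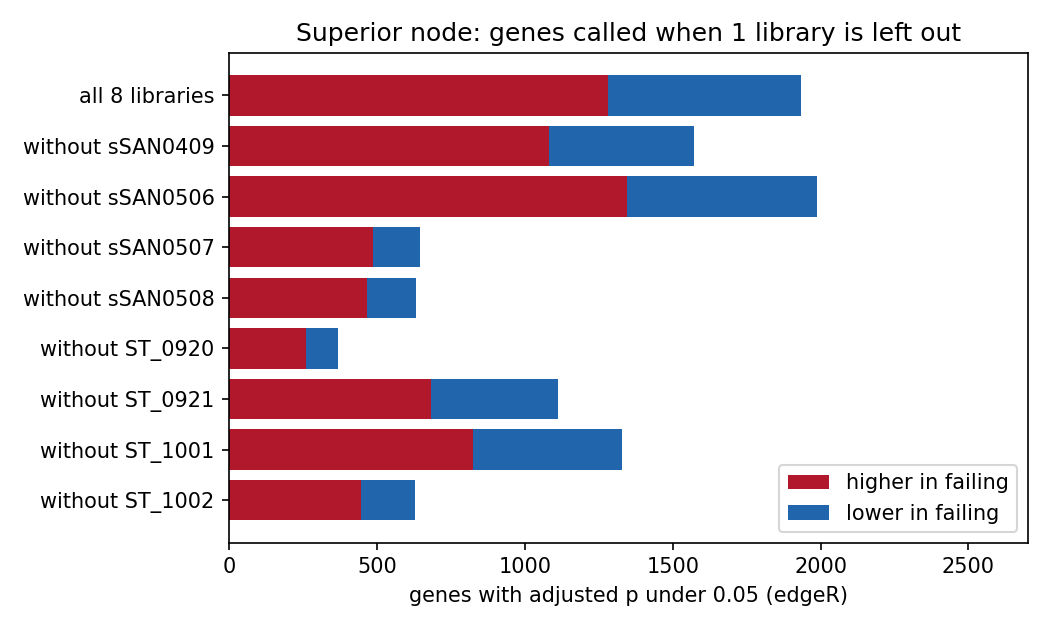
Number of genes that passed at an adjusted p under 0.05 in edgeR (x axis) with all 8 superior node libraries and without each in turn (y axis), split into genes higher (red) and lower (blue) in failing nodes. The bars run from 368 genes without ST_0920 to 1987 without sSAN0506.

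Each library was then set against genes that the other 7 had called. The failing library sSAN0508 lay on the failing side of the midpoint between the groups for 98.1% of 631 such genes, and sSAN0507 for 91.9% of 641. The figures were 70.7% of 1563 genes for sSAN0409 and 64.2% of 1970 genes for sSAN0506. The median distance of sSAN0508 from the healthy mean was 1.49 on the log2 scale, against 1.1 for the other failing libraries over the same genes, whereas that of sSAN0506 was 0.582 against 1.03. The gene list differs for each library, so these shares and distances do not rank the libraries over 1 set of genes. Each list was called with the libraries of the opposite state, and these also helped to set the midpoint. A high share on a library's own side thus follows in part from the choice of genes. Over all genes tested, sSAN0508 had the largest root mean square difference of the failing libraries from each of the 4 healthy ones (0.912 to 0.969), and sSAN0506 had the smallest (0.656 to 0.738). The healthy libraries lay on the healthy side for 90.6% (ST_0920), 79.3% (ST_0921), 75% (ST_1001) and 90.3% (ST_1002) of the genes called without them.

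Genes enriched in the healthy inferior node were then counted in failing superior nodes. A list of 756 genes at least 2-fold higher in healthy inferior node than in healthy right atrium (5.35% of genes tested there) was drawn from libraries outside the superior node. Of its 742 members tested, 97 (13.1%) were higher and 12 (1.62%) were lower in failing superior nodes, against 8.92% and 4.56% of all genes. Their median log2 change was 0.22, with quartiles of -0.32 and 0.84, against -0.01 over all genes, with quartiles of -0.28 and 0.33. Of 82 genes at least 2-fold lower in the inferior node than in the right atrium (0.58%), 73 were tested, and 2 (2.74%) were higher and 8 (11.0%) were lower, with a median of -0.44. These lists were chosen after results were seen and carry no test. Most members of both did not pass, 633 and 63.

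The same was done for genes that separate the ventricle from the atrium. The healthy left ventricle had only 2 libraries. Of 946 genes at least 2-fold higher in healthy left ventricle than left atrium (6.58%), 887 were tested in the superior node. In failing superior nodes 58 of them (6.54%) were higher and 46 (5.19%) lower, against 8.92% and 4.56% of all genes, with a median log2 change of -0.06. Of 1138 genes at least 2-fold lower in the ventricle (7.92%), 1081 were tested, and 103 (9.53%) were higher and 60 (5.55%) lower, with a median of -0.03. These medians lay near that of all genes, and these lists too were chosen after results were seen.

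Most genes that changed in the superior node also passed in other regions, whose libraries carry the same codes. In the right atrium, 1073 of the 1255 genes tested there from the superior list of increases were higher too (85.5%), or 31.5% of the right atrial list of increases. For decreases it was 571 of 643 (88.8%), or 17.8% of the right atrial list. In the left atrium it was 1007 of 1263 increases (79.7%) and 568 of 642 decreases (88.5%), or 29.5% and 16.9% of the left atrial lists. In the inferior node it was 1109 of 1272 increases (87.2%) and 561 of 645 decreases (87%), out of 2775 and 2712 genes in the inferior lists. Of all genes tested per region, the inferior node had 19.5% higher and 19% lower, the right atrium 24.5% and 23%, and the left atrium 24.3% and 23.9%. Opposite calls were rare: 0 against the inferior node, 3 against the right atrium and 4 against the left atrium.

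Of the 1883 superior node genes tested in all 3 other regions, 1341 passed in all 3 and 66 passed in none. How many of all genes passed in all 3 or in none was not counted, so these numbers lack a base. Those 66 comprised 40 higher and 26 lower genes. Of them, 2 passed a test of a difference in health effect, so most cannot be called particular to the superior node.

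Whether the health effect itself differed was tested as the effect in the superior node minus that in another region. Against the inferior node edgeR called 0 of 14918 genes (0%) and DESeq2 called 0, while 598 lay under an unadjusted p of 0.05 in edgeR. Against the right atrium edgeR called 0 of 14761 genes (0%) and DESeq2 called 136, while 1666 lay under an unadjusted p of 0.05 in edgeR. With the code as a replicate block, which pairs the superior node with the right atrium, 11 genes passed, 7 with the larger value in the superior node and 4 with the smaller. A missed threshold does not show equal effects: the 95% interval of the difference lay within 2-fold in both directions for 57.9% of the 1934 genes against the inferior node and 54.1% against the right atrium.

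Against the left atrium edgeR called 97 of 14884 genes (0.652%) and DESeq2 called 479, with the 97 among them. The superior node effect was above the left atrial one for 45 genes and below it for 52. For the 45, the median log2 change was -0.03 in the superior node and -1.45 in the left atrium. For the 52 it was 0.24 in the superior node and 1.51 in the left atrium. The change was larger in size in the left atrium for 87 of the 95 genes tested in both regions. Taken region by region, 71 of the 97 passed in the left atrium and not in the superior node, 5 passed in the superior node and not in the left atrium, 16 passed in both in the same direction and 3 in opposite directions. Most of these genes thus passed in the left atrium and not in the superior node. The left atrium also had more calls among all genes tested, 24.3% higher and 23.9% lower, against 8.92% and 4.56% in the superior node. How often all genes passed in the left atrium alone was not counted. The edgeR number was 25 without ST_0920, 33 without ST_0921, 43 without sSAN0409, 52 without sSAN0506 and 58 without ST_1001.

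**Figure D4:**
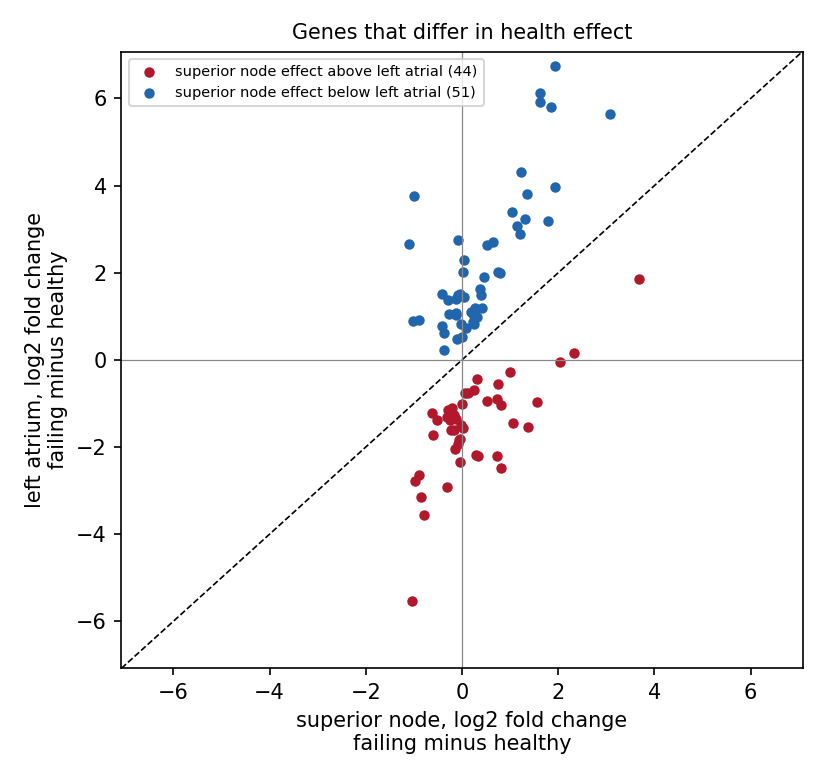
Log2 fold change of failing minus healthy in the superior node (x axis) and in the left atrium (y axis), 1 point a gene, for the 95 of 97 genes that passed as differing in health effect and were tested in both regions; the dashed line marks equal changes. Red points (44) have the higher value in the superior node and blue points (51) the lower, and most spread farther along the left atrial axis than along the superior node axis.

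The 4 genes printed above were followed through the heart, with CPM scaled within each region. In failing hearts the median of ENSRNOG00000008015 was 334 CPM in the superior node, 220 CPM in the inferior node, 72.4 CPM in the right atrium, 11 CPM in the left atrium and 1.67 CPM in the left ventricle. In healthy hearts its medians were 1.34, 4.82, 2.21, 2.03 and 0.432 CPM in the same order of regions. The failing superior node libraries (194 to 633 CPM) overlapped those of the inferior node (149 to 464 CPM) and lay above all failing right atria (64.9 to 182 CPM) and left atria (5.99 to 103 CPM). The health effect in the superior node minus that in the inferior node was 1.57 on the log2 scale (95% interval 0.03 to 3.11, edgeR adjusted p = 0.96). Minus the right atrium it was 2.35 (0.72 to 3.98, edgeR adjusted p = 0.311), and minus the left atrium 3.57 (1.02 to 6.11, edgeR adjusted p = 0.185). None of these differences passed once all genes were adjusted for. The increase itself passed in the inferior node (5.9, SE 0.44, edgeR adjusted p = 0.000369) and in the right atrium (5.14, SE 0.47, edgeR adjusted p = 0.00017). It also passed in the left atrium (3.87, SE 0.97, edgeR adjusted p = 0.00957), but not in the left ventricle (2.89, SE 1.37, edgeR adjusted p = 0.466).

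ENSRNOG00000002792 had its highest failing medians in both node parts, with 1.21 to 11 CPM in the superior and 1.08 to 4.3 CPM in the inferior node. These ranges overlapped those of the atria. It reached 0.419 to 3.34 CPM in failing right atria and 0.0696 to 3.08 CPM in failing left atria. In healthy hearts it stayed at or below 0.228 CPM in all regions. The gene passed in the inferior node as well, by 6.2 on the log2 scale (SE 0.77, edgeR adjusted p = 0.00103). It was below the filter in both atria.

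ENSRNOG00000062464 had its highest healthy median in the superior node, 5.29 CPM, against 1.32 CPM in the inferior node, 0.7 CPM in the right atrium, 0.815 CPM in the left atrium and 0.169 CPM in the left ventricle. The healthy inferior node libraries, at 0.405 to 6.39 CPM, overlapped the superior ones, at 1.31 to 8.9 CPM. The failing inferior node libraries, at 0.0473 to 0.354 CPM, all lay below the healthy ones of that region. The gene was below the filter in the inferior node, so its decrease was not tested there. The gene was also lower in failing right atria, with a fitted log2 value of -2.97 (SE 0.53, edgeR adjusted p = 0.00185), and in failing left atria, with -3.01 (SE 0.43, edgeR adjusted p = 0.000643). The superior node effect minus the inferior node one was -0.42 (95% interval -3.31 to 2.48, edgeR adjusted p = 0.986). Minus the right atrial one it was -0.95 (-3.38 to 1.48, edgeR adjusted p = 0.784). Minus the left atrial one it was -0.96 (-3.17 to 1.25, edgeR adjusted p = 0.696). These wide intervals leave the difference unresolved.

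ENSRNOG00000014481 likewise had its highest healthy median in the superior node, 5.62 CPM. Its other healthy medians were 1.21 CPM in the inferior node, 0.451 CPM in the right atrium, 0.779 CPM in the left atrium and 0.535 CPM in the left ventricle. The healthy inferior node libraries, at 0.54 to 4.93 CPM, overlapped the superior ones, at 1.17 to 11.2 CPM. The gene was below the filter in the right atrium. Its log2 change was -1.74 in the inferior node (SE 0.68, edgeR adjusted p = 0.0689) and -1.19 in the left atrium (SE 0.56, edgeR adjusted p = 0.105), neither of which passed. The superior node effect minus the inferior node one was -1.71 (95% interval -3.89 to 0.47, edgeR adjusted p = 0.96). Minus the right atrial one it was -1.12 (-3.58 to 1.33, edgeR adjusted p = 0.74), and minus the left atrial one -2.27 (-4.31 to -0.23, edgeR adjusted p = 0.276).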

How the data were processed

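Per the labels' protocols, RNA of each tissue piece was sequenced from TruSeq libraries. The submitters' processing notes name Trimmomatic 0.39 (read trimming) and kallisto 0.48.0 (quantification). For the build, annotation and transcript-to-gene step: not given in the sources used here. Gene and transcript tables of estimated counts and of TPM were deposited by the authors, with 24057 genes. Of their gene IDs, 0 were found in the GRCr8 reference table, so that no promoter or miRNA sequence could be matched.

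Estimated counts were rounded to whole numbers, filtered with filterByExpr (count minimum 10, total minimum 15), scaled with TMM and tested by robust quasi-likelihood in edgeR 4.0.16 (R 4.3.3), with Benjamini-Hochberg adjustment over all genes tested and a threshold of 0.05. Only the groups compared entered each of the 4 main fits, which are failing against healthy superior node and the differences of health effect. Calls and fold changes within another region came from the same kind of fit to that region's libraries alone. Fold changes are failing minus healthy, and differences of health effect are superior node minus the other region, and each SE is the fold change divided by the square root of its F value. The TPM values were tested with limma 3.58.1 on a log2 scale with a pseudocount of 1 or 0.1, which understates changes of low genes. DESeq2 1.42.0 was an alternative, as were RLE scaling, no filter, a fit of all 38 libraries and each library left out. TPM rescaled by TMM and removal of a length trend (loess span 0.3) were chosen after seeing the data. For principal components and distances, a prior count of 2 was added before taking log2 CPM.

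The members and lists were chosen with earlier results of these data known. The IDs printed are the 2 in each direction of greatest fold change that passed the threshold, averaged a log2 CPM of 1 or more and had no overlap of CPM ranges. Same-coded libraries of the superior node and the right atrium deviated together from their group means in all 8 pairs, with correlations across genes of 0.16 to 0.38, and the codes were taken to pair them, which comes from the data and the shared codes. No library was identical to another. The scripts were tested on simulated data with 200 changed genes. The test of failing against healthy superior node recovered 55% of 2-fold and 97% of 4-fold changes, with 6 false calls. The test of a difference of health effect recovered 39% and 88% against the inferior node (8 false calls). It recovered 55% and 89% against the right atrium (13 false calls), and 42% and 88% against the left atrium (2 false calls).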

Additional observations from a re-analysis of the deposited data

Results flagged for a closer look

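For 97 genes the superior node's health effect differed from that of the left atrium by edgeR's test of the difference itself, the 1 result that stood out by a test between groups. In 87 of the 95 genes tested in both regions the change was larger in size in the left atrium. Within the failing and the healthy superior node, no library lay apart from the other 3 by Dixon's criterion (critical value 0.829) in total count, in the share of the 10 most abundant genes, in the number of genes at or above 1 CPM, on the first principal component or in the 4 genes printed. This criterion looks for 1 library apart from 3. It cannot pick out a high and a low pair, which the healthy libraries showed in both lower genes. The second principal component was not examined by it.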

How the results depend on the processing

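The number of genes that differed between failing and healthy superior nodes was 3293 with DESeq2, which included 1933 of the 1934 edgeR genes, 1180 with limma on log2(TPM + 1) and 1186 on log2(TPM + 0.1). With TPM rescaled by TMM, limma on log2(TPM + 1) called 1643 genes, 1077 higher and 566 lower, against 1085 higher and 95 lower unscaled, so the low number of decreases went with the missing scaling. For DESeq2 the cause was not tested. The number was 1635 to 2689 with no filter, with the other size factors, with 1 fit of all 38 libraries and with the length trend removed. With 1 library left out it ranged from 368 to 1987. Of the genes printed, 3 kept their direction and their call in all 16 alternatives, and ENSRNOG00000014481 kept its direction in all 16 and lost its call in 3, each with 1 library left out. These genes were chosen for large changes without overlap in the same libraries, which every alternative reuses in full or but for 1. Keeping their direction thus follows in large part from the choice. For the difference of health effect, the test against the right atrium gave 136 genes with DESeq2 and 11 with the replicate block, and from 0 to 1 with 1 superior node library left out. Against the left atrium it gave 479 with DESeq2 and 89 with the replicate block, of which 54 were among the 97, and from 25 to 94 with 1 superior node library left out. Against the inferior node every alternative run gave 0. Same-coded libraries of the superior node and these 2 regions did not all deviate together, with lowest correlations of -0.01 (inferior node) and -0.10 (left atrium), and 7 of 8 superior node libraries correlated best with their own code in each. Genes with few counts, such as ENSRNOG00000002792 in healthy nodes, limit the precision of their fold changes.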
